A study of Mus musculus with 12 samples.

Results

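The TGF-beta ligand genes Tgfb1, Tgfb2 and Tgfb3 and the latent TGF-beta binding protein genes Ltbp1, Ltbp2, Ltbp3 and Ltbp4 are 7 of the 19938 genes that the arrays read with a probe set of their own. They were chosen by name as members of the 2 families, with earlier results of these data known. Each was read by 1 probe set annotated to its symbol alone, and all 7 passed the filter on dim genes. Ascending aortas were collected from mice aged 6 weeks and their RNA was hybridised to 12 arrays, in 4 groups of 3. Fbn1 mutant knockouts carried the Fbn1C1039G/+ allele, a heterozygous fibrillin-1 mutation that models Marfan syndrome, and received 1 mg of tamoxifen by intraperitoneal injection on 5 days from an age of 4 weeks. Fbn1 mutant controls had the same genotype and received corn oil, the vehicle. Wild-type knockouts had normal Fbn1 and received the same tamoxifen course, and wild-type controls had normal Fbn1 and received corn oil. All 4 groups, controls included, carried Myh11-CreERT2.Tgfbr2f/f, which combines a tamoxifen-inducible Cre driven by the smooth muscle gene Myh11 with floxed alleles of Tgfbr2, the type II receptor gene. Other cells of the vessel wall keep the receptor in this model, and the effect of tamoxifen itself cannot be told apart from that of the knockout. Whether the arrays of 1 group hold RNA of separate animals is not given in the labels, so p-values measure only the spread between these samples, which may be technical.

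TGF-beta is made as a precursor that furin-like proteases cut, after which the propeptide stays wrapped around the growth factor and keeps it inactive. A latent TGF-beta binding protein is joined to this complex inside the cell and, after secretion, ties it to fibrillin microfibrils and fibronectin in the matrix, where integrins, proteases and thrombospondin can release the ligand to its receptors. Ltbp1 and Ltbp3 encode carriers of the latent complex, Ltbp4 encodes a carrier that also takes part in elastic fibre assembly, and Ltbp2 encodes a microfibril protein that does not bind the latent complex. In the aortic wall the pathway is known for its part in elastic and collagen matrix upkeep and in inherited aneurysm.

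Promoters of Ltbp1, Ltbp3, Ltbp2 and Tgfb2 are shown so that their letters can be set beside the changes. RefSeq windows on build GRCm38.p6 were matched for 6 of the 7 genes, by symbol, and Tgfb3 is named only. Each window is the 250 bases before an annotated start, read 5′ to 3′ on the gene's own strand, and capitals mark the SMAD box CAGAC or its other strand GTCTG. Ltbp1 (chr17:75005279-75005528 and chr17:75178531-75178780, plus strand) and Ltbp3 (chr19:5740650-5740899, plus strand) fell in both Fbn1 genotypes, while Ltbp2 (chr12:84876492-84876741, minus strand) went opposite ways in them, as described later. Tgfb2 (chr1:186705990-186706239, minus strand) was called between the Fbn1 genotypes among knockouts.
Ltbp1 first start: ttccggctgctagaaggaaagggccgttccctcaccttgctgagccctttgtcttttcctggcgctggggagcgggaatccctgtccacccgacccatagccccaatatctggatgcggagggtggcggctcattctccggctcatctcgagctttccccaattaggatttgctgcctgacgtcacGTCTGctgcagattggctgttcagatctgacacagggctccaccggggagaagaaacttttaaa
Ltbp1 second start: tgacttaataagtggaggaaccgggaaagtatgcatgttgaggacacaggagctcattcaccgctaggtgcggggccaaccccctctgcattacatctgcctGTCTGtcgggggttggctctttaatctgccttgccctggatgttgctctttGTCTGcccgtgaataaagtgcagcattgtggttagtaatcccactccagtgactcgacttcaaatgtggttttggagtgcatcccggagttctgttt
Ltbp3: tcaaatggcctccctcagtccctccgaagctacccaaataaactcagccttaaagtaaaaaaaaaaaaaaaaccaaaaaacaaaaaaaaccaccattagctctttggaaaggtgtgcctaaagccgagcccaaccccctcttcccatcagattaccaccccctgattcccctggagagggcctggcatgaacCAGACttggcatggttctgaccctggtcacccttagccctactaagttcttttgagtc
Ltbp2: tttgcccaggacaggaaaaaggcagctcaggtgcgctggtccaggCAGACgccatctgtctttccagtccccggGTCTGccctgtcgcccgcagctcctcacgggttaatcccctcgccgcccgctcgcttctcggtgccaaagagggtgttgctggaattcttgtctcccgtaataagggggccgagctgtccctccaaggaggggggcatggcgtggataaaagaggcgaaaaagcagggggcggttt
Tgfb2: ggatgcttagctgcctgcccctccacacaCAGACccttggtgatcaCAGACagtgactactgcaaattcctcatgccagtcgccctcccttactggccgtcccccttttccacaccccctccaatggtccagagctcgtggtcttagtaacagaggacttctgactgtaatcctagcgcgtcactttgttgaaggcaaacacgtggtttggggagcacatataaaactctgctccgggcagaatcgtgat
The SMAD box was searched on both strands and is held by 42.2% of all 32851 promoter windows of this length. The first Ltbp1 start has 1 match, the second has 2, Ltbp3 has 1, Ltbp2 has 2 and Tgfb2 has 2. The windows of Tgfb1 and Ltbp4, not printed, have 0, although Ltbp4, like Ltbp1 and Ltbp3, was called lower in wild-type knockouts. Also searched on both strands were the E-box CACGTG, found once in Tgfb2 and in 6.02% of all windows, and the cAMP response element TGACGTCA, found once at the first Ltbp1 start, just before the SMAD box and not overlapping it, and in 1.55% of all windows. The AP-1 letters TGANTCA were found in 0 member windows and in 6.75% of all windows. These matches describe letters and not binding, and a missing match says nothing about the factor.

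Levels are log2 of the deposited RMA intensity. A change is the difference of 2 group means on that scale, with the standard error of the limma fit and 3 arrays in each group, and a gene was called at an adjusted p under 0.05 over the 14944 genes tested. Arrays of 1 group correlated at 0.995 to 0.997 and arrays of different groups at 0.991 to 0.996, and precision is limited by how few arrays there are. Tgfbr2, the targeted gene, measured 12.05, 12.07 and 11.98 in arrays 1 to 3 of the Fbn1 mutant knockouts, against 12.04, 11.98 and 11.95 in mutant controls. In the wild-type it measured 11.88, 11.95 and 11.79 in knockouts, against 11.96, 11.96 and 11.94 in controls. The differences were 0.04 in the mutant and -0.08 in the wild-type, with exact two-sided permutation p of 0.3 and 0.2, where 3 arrays against 3 allow no p under 0.1. The probe set thus did not show a loss, the position of its probes was not analysed here, and "knockout" stands below for the arrays labelled so. The RNA is of whole tissue, in which fewer cells of a type and less RNA per cell cannot be told apart.

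**Figure D1:**
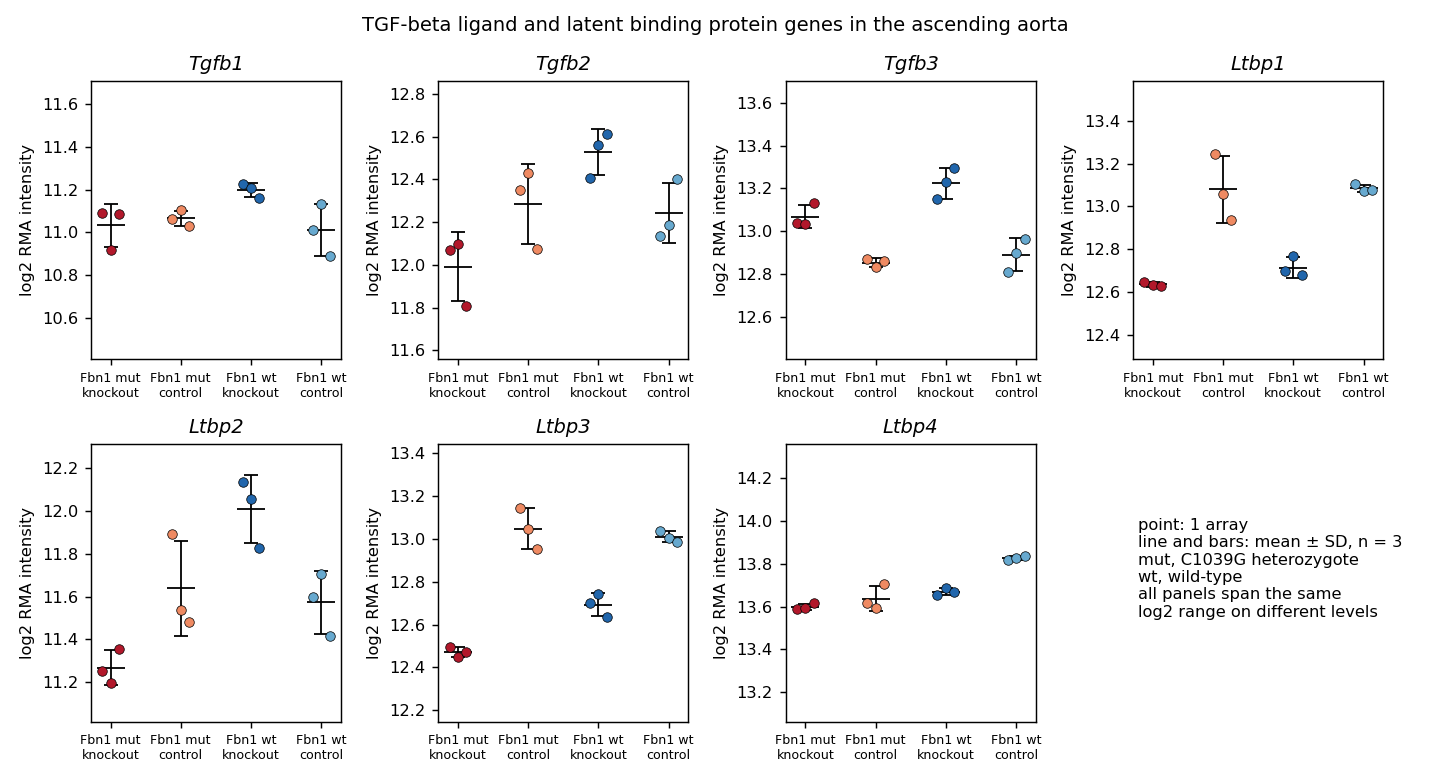
Log2 intensity of the 7 genes in each of the 12 arrays, by group from left to right Fbn1 mutant knockout, Fbn1 mutant control, wild-type knockout and wild-type control. Points are arrays, short lines are group means and bars are the SD. Ltbp1 and Ltbp3 lie lower in all 6 knockout arrays than in all 6 control arrays, and Ltbp2 is lowest in Fbn1 mutant knockouts and highest in wild-type knockouts.

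Ltbp1 and Ltbp3 were lower and Tgfb3 higher in knockouts of both Fbn1 genotypes, and Ltbp2 was lower in the knockouts of one and higher in those of the other. In the Fbn1 mutant 4 of the 7 genes were called, 1 higher in knockouts (Tgfb3) and 3 lower (Ltbp1, Ltbp2 and Ltbp3), where 13.4% of all tested genes were called, 7.66% upward and 5.77% downward. In the wild-type 5 of the 7 were called, Tgfb3 and Ltbp2 higher in knockouts and Ltbp1, Ltbp3 and Ltbp4 lower, where 18.8% of all genes were called, 9.17% upward and 9.66% downward. Knockout and control arrays did not overlap for 4 of the 7 genes in the mutant, against 35.9% of all genes, and for all 7 in the wild-type, against 35.8% of all genes. The median change over the 7 genes was -0.29 in the mutant and 0.19 in the wild-type, beside 0.03 and -0.01 over all tested genes. Without mutant control 1 or 2 or any mutant knockout array 2 genes were called in the mutant, and without wild-type knockout 1 there were 3 in the wild-type.

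Between the control groups, which differ in Fbn1, 1 of the 7 genes was called, Ltbp4, lower in the mutant, where 6.49% of all genes were called, 3.17% upward and 3.33% downward. The median over the 7 was 0.04 in that comparison, beside -0.02 over all genes, and mutant and wild-type controls did not overlap for 1 of the 7, against 28.1% of all genes. Among knockouts 3 of the 7 were called, Tgfb2, Ltbp2 and Ltbp3, all lower in the Fbn1 mutant, where 5.96% of all genes were called, 2.8% upward and 3.16% downward. All 7 had lower means in mutant knockouts than in wild-type knockouts, without overlap of the arrays, against 26.3% of all genes without overlap, and the median was -0.17 beside 0.01. The knockout effects of the mutant and the wild-type differed by a test of the difference itself for 1 gene, Ltbp2, with a negative sign. By that test 1.48% of all genes were called, 0.401% with a positive and 1.08% with a negative difference. The median of that difference was -0.22 over the 7 genes and 0.03 over all genes. These counts came to 0 without some single arrays, named at Ltbp4 for the controls and at Ltbp2 for the difference of effects, and without mutant control 3 the difference was called for 2 genes. These comparisons share groups, so their values are not independent of each other.

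**Figure D2:**
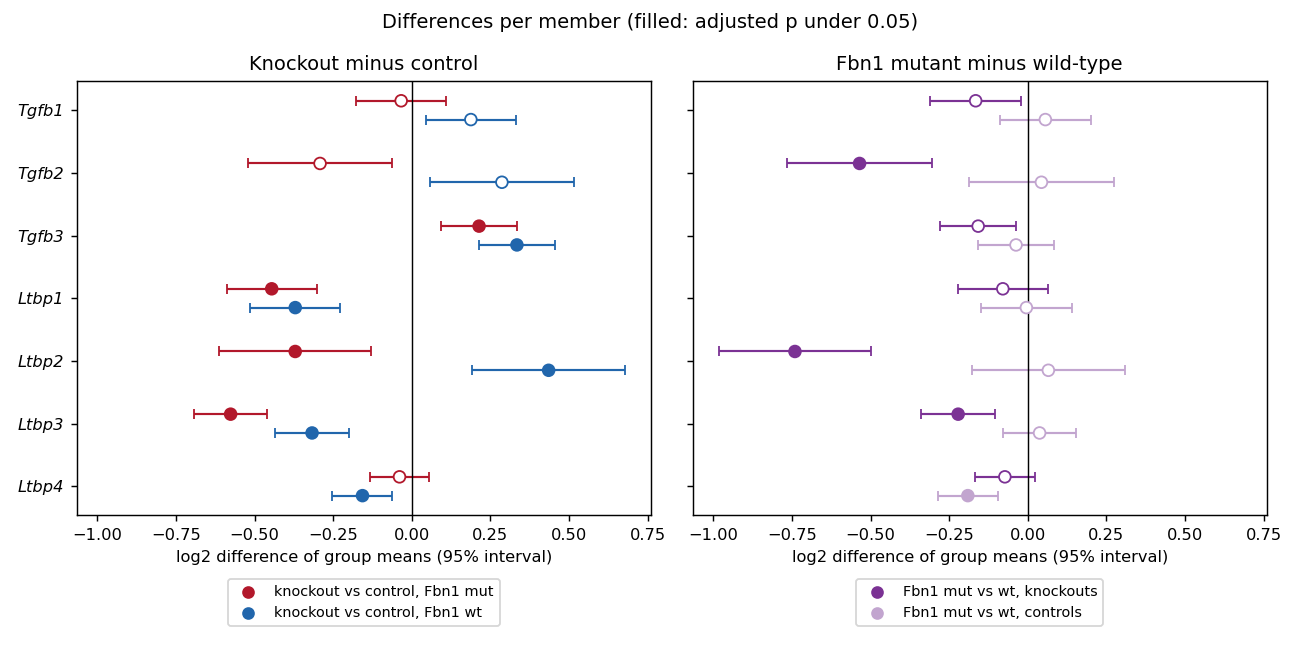
Log2 differences of the 7 genes with 95% intervals, with knockout minus control in each Fbn1 genotype in the left panel and Fbn1 mutant minus wild-type among knockouts and among controls in the right panel, filled points marking calls at an adjusted p under 0.05. Ltbp2 differs by -0.37 in the mutant and by 0.44 in the wild-type, while Ltbp1, Ltbp3 and Tgfb3 lie on the same side of 0 in both genotypes.

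Among the ligands, Tgfb3, which encodes an isoform known for its role in palate closure, was higher in knockouts of both genotypes. Fbn1 mutant knockouts had 13.04, 13.04 and 13.13, against 12.87, 12.83 and 12.86 in mutant controls. Wild-type knockouts had 13.15, 13.23 and 13.30, against 12.81, 12.90 and 12.97 in wild-type controls. All 6 knockout arrays lay above all 6 control arrays. Tgfb3 rose by 0.21 ± 0.06 in the mutant (adjusted p = 0.0258) and by 0.33 ± 0.06 in the wild-type (adjusted p = 0.00126), a level 1.16-fold and 1.26-fold that of controls. The difference between these effects was -0.12 with a 95% interval of -0.29 to 0.05 and an adjusted p of 0.457. Wild-type knockouts ranked first, at 13.23 ± 0.07 (SD, n = 3), then mutant knockouts at 13.07 ± 0.05, wild-type controls at 12.89 ± 0.08 and mutant controls at 12.85 ± 0.02. Neither the step between the 2 knockout groups (adjusted p = 0.123) nor that between the 2 control groups (adjusted p = 0.723) was called, and with array weights the first passed (0.0486). The call in the mutant ended when mutant control 1 or 2 or any mutant knockout array was left out, with adjusted p between 0.0517 and 0.0866, when each array was centred on its median (0.0520), and without mutant control 3 and mutant knockout 1, the 2 arrays of highest Ucp1 (0.0795).

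Tgfb2, whose product has a known part in heart and outflow tract development, had knockout differences of opposite sign in the 2 genotypes, neither of which passed the threshold. Fbn1 mutant knockouts had 12.07, 12.10 and 11.81, against 12.35, 12.43 and 12.07 in mutant controls, where mutant control 3 lay within the range of the knockouts. Wild-type knockouts had 12.41, 12.56 and 12.61, against 12.14, 12.19 and 12.40 in wild-type controls, where knockout 1 lay just above control 3. The differences were -0.29 ± 0.11 in the mutant (adjusted p = 0.0842, 95% interval -0.52 to -0.06) and 0.29 ± 0.11 in the wild-type (adjusted p = 0.0792, 95% interval 0.06 to 0.52). Set against each other, the 2 effects differed by -0.58 ± 0.15, which did not pass (adjusted p = 0.0808). Among knockouts Tgfb2 was lower in the Fbn1 mutant by a called difference of -0.53 ± 0.11 (adjusted p = 0.0109), a level 0.690-fold that of wild-type knockouts, while among controls the difference was 0.04 with an interval of -0.19 to 0.27. The order of means was wild-type knockouts at 12.53 ± 0.11, mutant controls at 12.28 ± 0.19, wild-type controls at 12.24 ± 0.14 and mutant knockouts at 11.99 ± 0.16 (SD, n = 3 each), and apart from the outermost pair no difference tested among these groups passed. Without mutant control 3 the difference in the mutant (adjusted p = 0.0282), that in the wild-type (0.0476) and the difference of effects (0.0341) all passed, and without wild-type control 3 the wild-type difference passed (0.0452). With array weights all 3 passed (0.0470 in the mutant, 0.0492 in the wild-type and 0.0428 for the difference of effects), as did the wild-type difference in a fit of only the groups compared (0.0474), and without mutant control 3 and mutant knockout 1 the difference in the mutant (0.0431) and that of effects (0.0477).

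Tgfb1, the isoform most studied in aortic disease and in immune regulation, was called in none of the 5 comparisons. It had 11.09, 10.92 and 11.09 in Fbn1 mutant knockouts, against 11.07, 11.10 and 11.03 in mutant controls, and these ranges overlapped. Wild-type knockouts had 11.23, 11.21 and 11.16, against 11.01, 11.13 and 10.89 in wild-type controls, with no overlap. The differences were -0.03 in the mutant (adjusted p = 0.752, 95% interval -0.18 to 0.11) and 0.19 ± 0.07 in the wild-type (adjusted p = 0.0673, 95% interval 0.04 to 0.33). Wild-type knockouts ranked first at 11.20 ± 0.03, before mutant controls at 11.07 ± 0.04, mutant knockouts at 11.03 ± 0.10 and wild-type controls at 11.01 ± 0.12 (SD, n = 3 each), and none of the steps tested was called. Without wild-type control 2 the wild-type difference was 0.25 and passed (adjusted p = 0.0300), and it also passed after quantile normalization (0.0241).

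Ltbp1 and Ltbp3, which like Ltbp4 encode carriers of latent TGF-beta, were lower in knockouts of both genotypes. For Ltbp1, Fbn1 mutant knockouts had 12.65, 12.63 and 12.63, against 13.25, 13.06 and 12.94 in mutant controls. Wild-type knockouts had 12.70, 12.77 and 12.68, against 13.10, 13.07 and 13.08 in wild-type controls. Every knockout array lay below every control array, and the mutant controls were more spread (SD 0.16) than the mutant knockouts (SD 0.01). Ltbp1 fell by 0.45 ± 0.07 in the mutant (adjusted p = 0.00144) and by 0.37 ± 0.07 in the wild-type (adjusted p = 0.00208), a level 0.734-fold and 0.773-fold that of controls. Between genotypes the effects differed by -0.07, with a 95% interval of -0.28 to 0.13 and an adjusted p of 0.717. Mutant knockouts lay below wild-type knockouts without overlap, by a difference of -0.08 that was not called (adjusted p = 0.558, interval -0.22 to 0.06), and the control groups overlapped, with a difference of -0.004 (interval -0.15 to 0.14).

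Ltbp3 gave the smallest p of the 7 genes in any comparison. Its levels were 12.49, 12.45 and 12.47 in Fbn1 mutant knockouts, against 13.14, 13.05 and 12.95 in mutant controls. They were 12.70, 12.74 and 12.64 in wild-type knockouts, against 13.04, 13.01 and 12.99 in wild-type controls. The 4 groups fell into 3 steps, with mutant knockouts lowest, wild-type knockouts above them and the 2 control groups overlapping at the top. Ltbp3 fell by 0.58 ± 0.05 in the mutant (adjusted p = 5.08e-05), to 0.671-fold the control level and rank 34 by p among all tested genes, and by 0.32 ± 0.05 in the wild-type (adjusted p = 0.00150), to 0.803-fold. Among knockouts it was lower in the mutant by a called difference of -0.22 ± 0.05 (adjusted p = 0.0314), while among controls the difference was 0.04 with an interval of -0.08 to 0.15. The test of the difference between the 2 knockout effects, -0.26 ± 0.08, did not pass (adjusted p = 0.122). The call among knockouts ended without any one of the mutant knockout arrays or without wild-type knockout 1 or 2, with adjusted p between 0.0660 and 0.0989, and without mutant control 3 and mutant knockout 1 together (0.0658), while the knockout calls of Ltbp1 and Ltbp3 held in all 22 alternatives in each genotype.

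Ltbp2, the family member that does not carry latent TGF-beta, changed in opposite directions in the 2 genotypes, and its effects differed by the test of the difference. Fbn1 mutant knockouts had 11.25, 11.19 and 11.36, against 11.89, 11.54 and 11.48 in mutant controls. Wild-type knockouts had 12.14, 12.06 and 11.83, against 11.60, 11.71 and 11.42 in wild-type controls. Knockouts thus lay wholly below controls in the mutant and wholly above them in the wild-type, and the 2 control groups overlapped. Ltbp2 fell by 0.37 ± 0.11 in the mutant (adjusted p = 0.0464), to 0.773-fold, and rose by 0.44 ± 0.11 in the wild-type (adjusted p = 0.0170), to 1.35-fold. The 2 effects differed by -0.81 ± 0.16 (adjusted p = 0.0270, 95% interval -1.15 to -0.46). Among knockouts the mutant level was 0.599-fold the wild-type level, a called difference of -0.74 ± 0.11 (adjusted p = 0.00231), and among controls the difference was 0.07 (adjusted p = 0.762, interval -0.18 to 0.31). The order of means was wild-type knockouts at 12.01 ± 0.16, mutant controls at 11.64 ± 0.22, wild-type controls at 11.57 ± 0.15 and mutant knockouts at 11.27 ± 0.08 (SD, n = 3 each). Mutant control 1 weighed most on the fall in the mutant, which was -0.24 without it (adjusted p = 0.145), and that call ended in 12 of 22 alternatives, with adjusted p between 0.0511 and 0.145, among them leaving out mutant control 2, any mutant knockout, wild-type control 1 or wild-type knockout 1 or 2. The wild-type call ended without wild-type control 3, knockout 1 or knockout 2 (adjusted p 0.0644, 0.0741 and 0.0517), and the call of the difference ended without mutant knockout 1 or 2, wild-type control 3 or wild-type knockout 1 or 2 (adjusted p 0.0557 to 0.0770).

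Ltbp4 varied least between arrays and carried the only call for the mutation among controls. It had 13.59, 13.59 and 13.61 in Fbn1 mutant knockouts, against 13.62, 13.59 and 13.70 in mutant controls. It had 13.66, 13.69 and 13.67 in wild-type knockouts, against 13.82, 13.83 and 13.84 in wild-type controls. Wild-type controls stood above all 9 other arrays, and mutant knockouts and mutant controls overlapped. Ltbp4 fell by 0.19 ± 0.04 in mutant controls relative to wild-type controls (adjusted p = 0.0254, 0.876-fold) and by 0.16 ± 0.04 in wild-type knockouts relative to wild-type controls (adjusted p = 0.0256, 0.897-fold). These 2 comparisons share the wild-type controls. The knockout difference in the mutant was -0.04 (adjusted p = 0.564, interval -0.13 to 0.06), and the difference of the effects, 0.12 with an interval of -0.02 to 0.25, was not called (adjusted p = 0.365). The call for the mutation ended without mutant control 1 or 2 or any wild-type control (adjusted p 0.0501 to 0.114) and in a fit of the compared groups only (0.0885), and the knockout call ended without wild-type control 2 or 3 or wild-type knockout 1 or 3 (0.0621 to 0.0816) and in that fit (0.0586).

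How far the 7 genes moved over the 4 groups differed among them. The range of group means was 0.74 for Ltbp2, 0.58 for Ltbp3, 0.53 for Tgfb2, 0.45 for Ltbp1 and 0.37 for Tgfb3, at percentiles 96.4, 93.8, 92.7, 89.8 and 85.3 of all tested genes. Ltbp4 moved by 0.23 and Tgfb1 by 0.19, at percentiles 64.4 and 51.1. Ltbp2 and Tgfb2 also varied most within groups, with pooled SDs of 0.16 and 0.15 beside a median of 0.08 over all genes, while Ltbp4 had the smallest at 0.03.

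Of the 24 genes known to process, release or activate latent TGF-beta, 21 were tested. In the Fbn1 mutant 2 rose and 5 fell in knockouts, in the wild-type 3 rose and 5 fell, and the medians were -0.11 and -0.10 (all genes 0.03 and -0.01). Thbs1, which encodes thrombospondin-1, an activator of latent TGF-beta, rose by 1.50 ± 0.24 in the mutant (adjusted p = 0.00215) and by 1.86 ± 0.24 in the wild-type (adjusted p = 0.000215). Itgb3, an integrin beta chain that with Itgav binds the propeptide, fell by 0.60 ± 0.10 in the mutant (adjusted p = 0.00340) and by 0.82 ± 0.10 in the wild-type (adjusted p = 0.000208). Itgb5, another partner of Itgav, fell by 0.30 ± 0.05 in the mutant and by 0.29 ± 0.05 in the wild-type. Nrros, which encodes an anchor of latent TGF-beta on macrophages and microglia, rose by 0.21 ± 0.05 in the mutant (adjusted p = 0.0170; 0.0558 without mutant control 2 and 0.0603 without mutant knockout 2) and by 0.31 ± 0.05 in the wild-type (adjusted p = 0.00102). The activator Thbs1 was thus higher and both integrin chains lower in knockouts, and the count in the mutant was 4 rather than 7 without mutant control 1 or 2 or mutant knockout 1 or 2.

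For the mutation, 0 of these 21 genes rose and 4 fell among knockouts, and 1 rose and 3 fell among controls. Itgb8, an integrin chain that activates latent TGF-beta, fell by 0.58 ± 0.08 in mutant relative to wild-type knockouts (adjusted p = 0.00209) and by 0.46 ± 0.08 in mutant relative to wild-type controls (adjusted p = 0.00782, and 0.0517 with those groups only in the fit). Pcsk5, a furin-like convertase, fell by 0.44 ± 0.08 in mutant knockouts relative to wild-type knockouts (adjusted p = 0.00520). Mmp2, a gelatinase, fell by 0.37 ± 0.07 in the same comparison (adjusted p = 0.00752, and 0.0555 without mutant control 3 and mutant knockout 1) and was the only gene of the list whose 2 knockout effects differed by the test, by -0.60 ± 0.10 (adjusted p = 0.00974). Among controls the count of 4 came to 1 without mutant control 2 or wild-type control 1 and to 2 without wild-type control 2 or 3.

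The list of microfibril and matrix genes is labelled anchors here, though not all of them tie latent complexes to the matrix. Its genes were called mostly downward in mutant knockouts and mostly upward in wild-type knockouts, a contrast of counts that was not itself tested. Of 23 such genes 21 were tested, Fbn1 and Efemp2 not being among them. In the Fbn1 mutant 2 rose and 7 fell in knockouts, and in the wild-type 7 rose and 3 fell, with medians of -0.07 and 0.08. Eln, the gene of tropoelastin, fell by 0.49 ± 0.10 in mutant knockouts (adjusted p = 0.00683) and rose by 0.44 ± 0.10 in wild-type knockouts (adjusted p = 0.00662), and the effects differed by -0.94 ± 0.14 (adjusted p = 0.00537), the only call of the list in that test. Among controls Eln rose by 0.75 ± 0.10 in the mutant (adjusted p = 0.00121), a comparison in which Ltbp2 differed by 0.07 and was not called. Adamtsl2, a microfibril-associated protein that binds Ltbp1, rose by 1.19 ± 0.09 in mutant knockouts (adjusted p = 1.19e-05) and by 1.23 ± 0.09 in wild-type knockouts (adjusted p = 4.43e-06), while Ltbp1 itself fell in both.

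Further genes of this list with calls for the knockout included Mfap4, Lox, Fbln2 and Adamts10. Mfap4, a microfibril-associated glycoprotein, fell by 0.40 ± 0.06 and Lox, the cross-linking enzyme of elastin and collagen, by 0.49 ± 0.10 in mutant knockouts, where the wild-type differences were -0.16 and 0.15 and not called. Fbln2, a fibulin that joins elastin and fibrillin, rose by 0.42 ± 0.11 in mutant knockouts and by 0.79 ± 0.11 in wild-type knockouts. Adamts10, a fibrillin-binding protease, fell by 0.35 ± 0.07 in mutant knockouts and by 0.34 ± 0.07 in wild-type knockouts. For the mutation, 1 rose and 5 fell among knockouts, Adamtsl3 having the smallest p of them and a fall of 0.36 ± 0.06, and 5 rose and 1 fell among controls, among which Mfap2, a microfibril glycoprotein, rose by 0.66 ± 0.11, with the smallest p after Eln. The count for the knockout was 5 rather than 9 in the mutant without mutant control 2 and 6 rather than 10 in the wild-type without wild-type knockout 3. For the mutation it was 2 rather than 6 among knockouts without mutant knockout 1 or 3 or any wild-type knockout, and 2 or 3 rather than 6 among controls without mutant control 1 or 2 or wild-type control 1 or 2. The difference of effects was called for 2 genes without mutant control 3 or wild-type control 3. It was called for 3 with the filter at the median of annotated probe sets, and for 4 with array weights or with an eBayes trend. All of these calls were downward, and the list median of that difference was -0.23, beside 0.03 over all genes.

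All 19 receptors, SMADs and inhibitors of the pathway were tested. In the Fbn1 mutant 1 rose and 3 fell in knockouts and in the wild-type 1 rose and 7 fell, with medians of -0.01 and -0.08. Pmepa1 and Ldlrad4, which restrain SMAD signalling and are themselves induced by it, fell in knockouts of both genotypes, Pmepa1 with an adjusted p of 3.53e-05 in the mutant and 0.000153 in the wild-type and Ldlrad4 with 0.000164 and 0.000204. Tgfbr1, the type I receptor, fell by 0.39 ± 0.08 (adjusted p = 0.00379) and Ski, a co-repressor of SMADs, by 0.20 ± 0.05 (adjusted p = 0.00892) in wild-type knockouts. For the mutation, 1 gene of the list fell among knockouts, Pmepa1 by 0.28 ± 0.05 (adjusted p = 0.00492), and 2 fell among controls. Among knockouts the count for the mutation was 2 without mutant knockout 1 or wild-type knockout 2. The difference of effects was called for 0 of the 19, and for 1 without wild-type knockout 2. Without mutant control 1 or 2 the knockout count in the mutant was 2 rather than 4, and among controls the count was 0 or 1 without any one control array other than wild-type control 3.

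**Figure D3:**
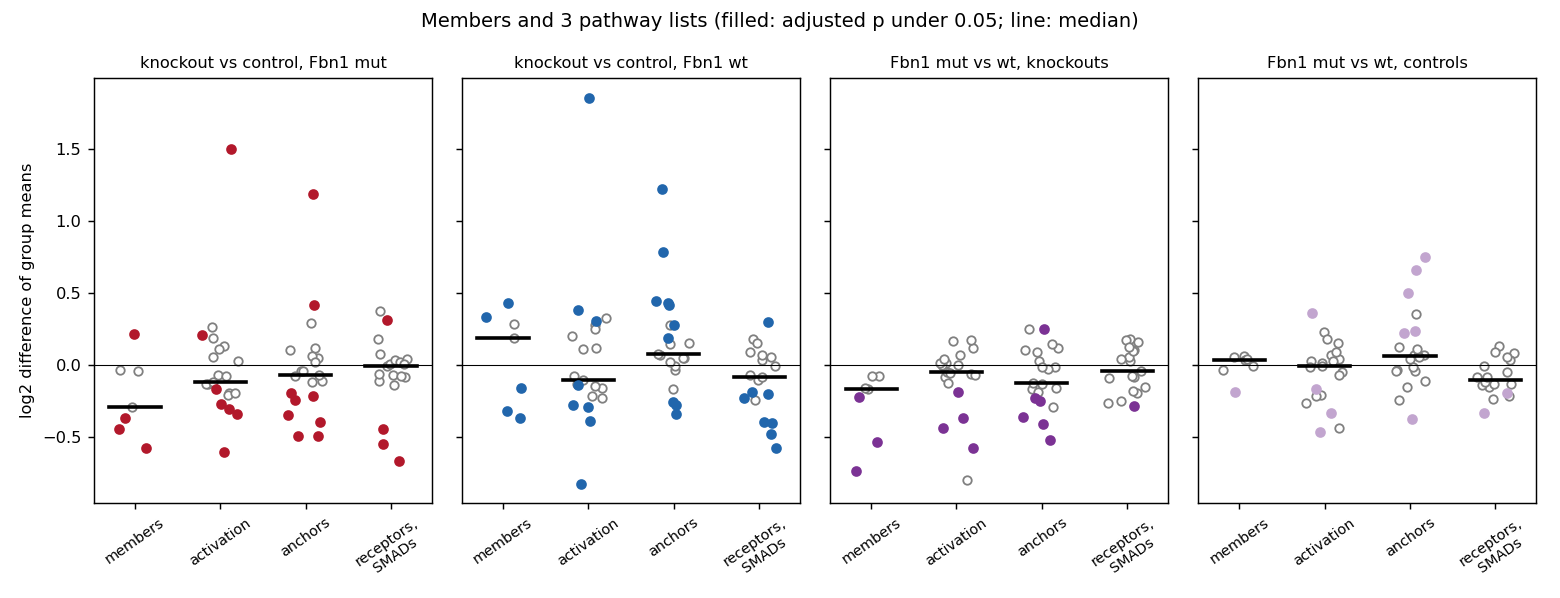
Log2 differences of the 7 genes and of the tested genes of the 3 pathway lists in 4 comparisons, each point a gene and each short line a median, with filled points for calls. The microfibril and matrix genes, labelled anchors, have a median of -0.07 for the knockout in the mutant and 0.08 in the wild-type. Thbs1 is the highest point of the release and activation genes for the knockout in both.

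Smooth muscle markers were abundant in every group, with a summed intensity of 102544 to 103832 in Fbn1 mutant knockouts, 102198 to 104942 in mutant controls, 102233 to 103357 in wild-type knockouts and 104231 to 105951 in wild-type controls, so markers of the labelled tissue were present. Of the 8 markers 1 rose and 1 fell in mutant knockouts and 0 rose and 2 fell in wild-type knockouts, counts that came to 0 or 1 without some single arrays of those groups. Macrophage markers moved with the knockout, with 7 of 10 higher in mutant knockouts and 10 of 10 in wild-type knockouts, at medians of 0.40 and 1.02. Their summed intensity was 15610 to 16122 in mutant knockouts, against 10019 to 13535 in mutant controls, and 19807 to 21807 in wild-type knockouts, against 9506 to 11839 in wild-type controls. Among knockouts 6 of the 10 were lower in the mutant, the direction in which Tgfb2, Ltbp2 and Ltbp3 were called. The difference of effects was called downward for 4 of the 10, as it was for Ltbp2 and for 161 of the 221 genes called in this test. For the knockout itself the markers were higher in both genotypes, as Tgfb3 was, whereas Ltbp1 and Ltbp3 were lower in both. Ltbp2 was lower in mutant knockouts and higher in wild-type knockouts, and Ltbp4 was lower in wild-type knockouts. The count of 7 was 4 without mutant control 1 or 2 or mutant knockout 2, and that of 6 was 3 without mutant knockout 1 or wild-type knockout 1 or 3. Endothelial markers rose for 4 of 8 genes in each genotype, with sums of 14913 to 18223 in mutant knockouts, 11366 to 15283 in mutant controls, 16888 to 22202 in wild-type knockouts and 12850 to 15006 in wild-type controls. The endothelial count in the mutant was 1 without mutant control 1 or mutant knockout 1 or 2, and 0 without mutant control 2.

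Fibroblast markers rose for 1 and fell for 1 of 8 genes in mutant knockouts and rose for 3 in wild-type knockouts, with sums of 36288 to 38275 in mutant knockouts, 35951 to 40679 in mutant controls, 41408 to 44024 in wild-type knockouts and 32778 to 38413 in wild-type controls. Of the 8 fibroblast markers 2, Lum and Col14a1, had called differences of effects, of -0.63 and -0.41. Their sign was that of Ltbp2, and also that of 161 of the 221 genes called in this test. The fibroblast count was 1 in the wild-type without wild-type control 2 or wild-type knockout 1 or 3, and in the mutant the gene that rose lost its call without any one mutant control, mutant knockout 2, wild-type control 1 or any one wild-type knockout. Only 1 fibroblast gene kept a called difference of effects without mutant control 1 or 2, mutant knockout 1 or 3, wild-type control 1 or 2, or wild-type knockout 1 or 3, and 0 did without mutant control 3 and mutant knockout 1 together. Cardiac markers rose for 2 and fell for 1 of 8 in each genotype, with sums of 13859 to 16536 in mutant knockouts, 7729 to 10958 in mutant controls, 12557 to 14379 in wild-type knockouts and 9044 to 10396 in wild-type controls, and the count in the wild-type was 1 without wild-type knockout 1. Of 8 adipocyte markers 5 were tested and 2 rose in each genotype, and the brown fat gene Ucp1 was at 8.58 in mutant control 3, 8.21 in mutant knockout 1 and 7.30 in mutant knockout 2, against 6.75 to 6.93 in the other 9 arrays. Lymphocyte markers, 2 of 6 tested, and erythroid markers, 1 of 4 tested, gave 0 calls. The part of other cell types in the changes of the 7 genes was not tested.

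**Figure D4:**
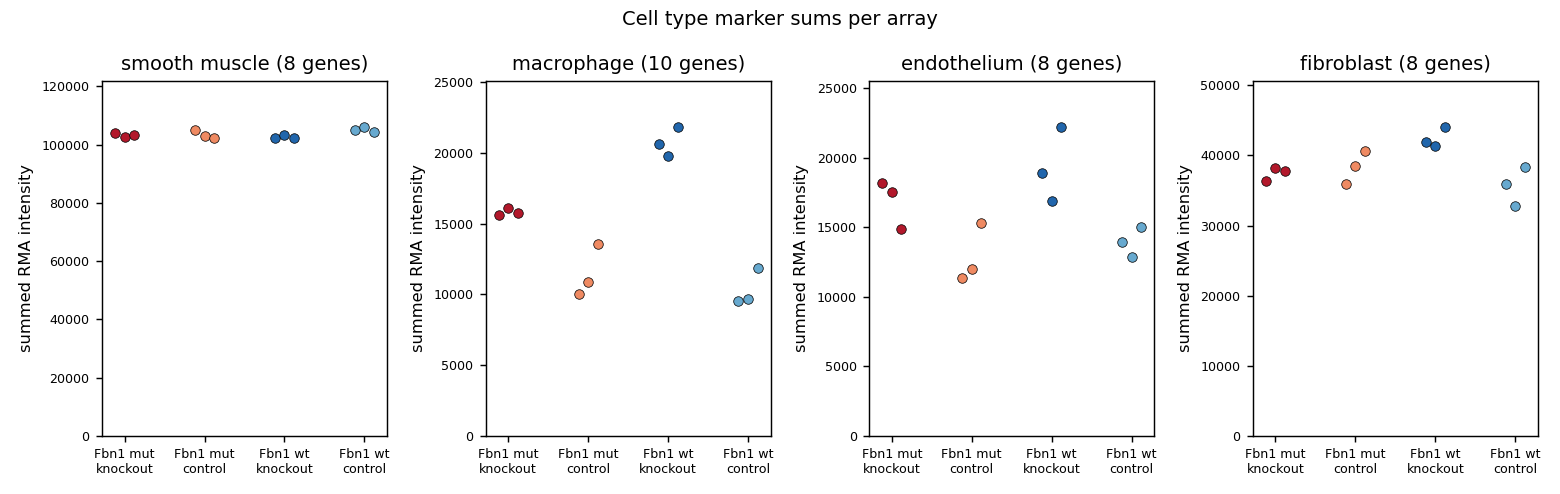
Summed intensity of the smooth muscle, macrophage, endothelial and fibroblast markers in each array, by group from left to right Fbn1 mutant knockout, Fbn1 mutant control, wild-type knockout and wild-type control. Macrophage sums are 15610 to 16122 in mutant knockouts and 19807 to 21807 in wild-type knockouts, above 9506 to 13535 in controls, while smooth muscle sums stay between 102198 and 105951.

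The genes whose pattern over the 12 arrays lay nearest to each called member were found by the root mean square difference of log2 values centred on each gene's mean. Nearest to Ltbp1 were Npnt, at 0.0440, and Glg1, at 0.0478, where the median over all genes was 0.240. Npnt was also nearest to Ltbp3, at 0.0595, with Gask1b at 0.0691 (all genes 0.265). Npnt, which encodes the integrin ligand nephronectin, differed by -0.48 ± 0.05 in Fbn1 mutant knockouts (adjusted p = 9.01e-05) and by -0.39 ± 0.05 in wild-type knockouts (adjusted p = 0.000198). Nearest to Tgfb3 were Rin1, at 0.0460, and Plpp3, a lipid phosphate phosphatase, at 0.0499 (all genes 0.183).

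Ltbp2 and Tgfb2 had no neighbour as close in these distances, which were not scaled to how far each member itself varied. The root mean square of the member's own profile was 0.294 for Ltbp2, 0.242 for Ltbp3, 0.226 for Tgfb2, 0.217 for Ltbp1, 0.157 for Tgfb3 and 0.0910 for Ltbp4. Nearest to Ltbp2 were Pcbd1, at 0.115, and Dgkk, a diacylglycerol kinase, at 0.153 (all genes 0.315), and nearest to Tgfb2 were Gfra2, a GDNF family receptor, at 0.117, and Creld2, at 0.121 (all genes 0.258). Dgkk shared with Ltbp2 a called difference of the knockout effects, -0.59 ± 0.12 (adjusted p = 0.0358), which ended without any one array other than mutant knockout 3, wild-type control 1 and wild-type knockout 2 (adjusted p 0.0501 to 0.0883). Nearest to Ltbp4 were Dlg1, at 0.0351, and Ccser2, at 0.0354 (all genes 0.131). Since neighbours were picked for likeness on the same arrays, their values describe the pattern and are not further evidence for it.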

How the data were processed

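Biotin-labelled RNA was measured on 1-colour whole-transcript arrays from Affymetrix, per the labels' protocols, and the authors normalised the signals with RMA in Partek 6.4, per the submitters' processing notes. The deposited table gives 35556 probe sets as linear intensity, and log2 was taken here. No 2 arrays held identical values. Depth has no meaning for arrays, and their number limits the precision.

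Of the probe sets 21789 had 1 symbol, 1621 several and 12146 none in the platform annotation. A gene was read by its single-symbol probe set of highest mean, and genes under the 25th percentile of single-symbol probe sets (log2 7.31, intensity 159) stayed out of the tests. A limma model (version 3.58.1, R 4.3.3, eBayes with no trend) had a coefficient for each group over all 12 arrays, leaving 8 residual degrees of freedom, to which the prior added 4.54. All 5 contrasts were two-sided, with Benjamini-Hochberg adjustment over 14944 genes, and the fit was also tested on simulated data. There, with 50 genes per change, the difference of effects was called for 18% of genes changed by 0.3, 78% by 0.5 and 56% by -0.5. The other contrasts called 46% to 60% of genes changed by 0.3 and 84% to 92% of those changed by 0.5 or -0.5.

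The members and lists were chosen with earlier results of these data known. Named are the members, Tgfbr2, the markers, up to 4 called genes of smallest p per pathway list and comparison, and the 2 genes of most like pattern per called member. Olfactory receptors, predicted genes and Mir or Snor symbols were not eligible as like genes. Other values of such genes were added beside these. Marker genes named singly, and Fbln2, Adamts10, Mfap4 and Lox in comparisons where the rule does not name them, were chosen after their values were seen. Not every gene and comparison under the rule is described above. The genes left out are Mmp14 and Fmod, higher in mutant than in wild-type controls, and Mmp9 and Smurf2, lower there. Also left out are Smad3, higher, and Skil, lower, in mutant knockouts than in mutant controls.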

Additional observations from a re-analysis of the deposited data

Results flagged for a closer look

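The knockout effect on Ltbp2 differed between the Fbn1 genotypes by a test of the difference itself, at -0.81 ± 0.16 on the log2 scale (adjusted p = 0.0270), with all 3 mutant knockouts below the mutant controls and all 3 wild-type knockouts above the wild-type controls. Of all tested genes 1.48% passed this test. Over 21 alternatives the difference lay between -0.90 and -0.68, with adjusted p between 0.0157 and 0.0770.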

How the results depend on the processing

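No called difference of a member, and none of the pathway and like genes followed singly, changed sign under the alternatives tried. Markers were followed by counts. In 22 alternatives for each comparison, and 21 for the difference of effects, the calls of Ltbp1 and Ltbp3 for the knockout in both genotypes, of Tgfb3 in the wild-type, and of Ltbp2 and Tgfb2 between the knockout groups were kept, and the other calls were lost or joined as given with each gene. Leaving out 1 array gave 2 to 5 called members for the knockout in the mutant, 3 to 6 in the wild-type, 2 to 3 for the mutation among knockouts, 0 to 1 among controls and 0 to 2 for the difference of effects. Over all genes it gave 896 to 2146, 1836 to 2992, 382 to 1019, 349 to 1073 and 107 to 202 calls in the same order, against 2008, 2814, 890, 970 and 221. Array weights gave 3687 genes for the knockout in the mutant, 1687 for the mutation among knockouts, 1568 among controls, and 469 genes and 2 members for the difference of effects. A fit of only the groups compared gave 1261 genes for the knockout in the mutant, and 480 genes and 0 members for the mutation among controls. Without the 2 arrays of highest Ucp1 there were 1082 genes for the knockout in the mutant, 409 for the mutation among knockouts, and 2 members for the difference of effects. Centring each array on its median moved the balance of calls, from 1145 of 2008 upward to 660 of 2033 for the knockout in the mutant, from 418 of 890 to 271 of 920 for the mutation among knockouts, and from 60 of 221 to 27 of 183 for the difference of effects. Before centring, the median intensity was 334 in mutant knockout 3, against 301 to 317 in the other arrays. Mutant knockout 3 enters each comparison whose balance is given here. The cause of the moves was not tested, apart from the fewer arrays in some fits. The counts for lists, like genes and Tgfbr2 were put through the same alternatives, which was chosen after seeing the data.

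When the replicate number entered the fit as a block, 1796, 2595, 841, 867 and 199 genes and 4, 5, 3, 1 and 1 members were called in the order above, with no call of a member changed, while the difference of effects of Dgkk lost its call (adjusted p = 0.0537) and called differences of effects numbered 1 rather than 2 among fibroblast markers and 2 rather than 1 among anchors. Deviations of same-numbered arrays from their group means correlated at 0.01 to 0.24 between knockouts and controls of 1 genotype. The correlations were 0.0001 to 0.15 between the control groups and -0.21 to -0.05 between the knockout groups. Differently numbered arrays were not compared in this way, and the numbers are not taken as pairing samples.

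With 3 arrays in each group, calls near the threshold were lost when single arrays were left out. Tamoxifen and knockout cannot be told apart, Tgfbr2 showed no loss on its probe set, and the part of the marker changes in the values of the 7 genes was not tested.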
